A study of Sus scrofa with 4 samples.

Results

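The genes described here are BAX, BAD, DFFB and ACER2, 3 genes of programmed cell death and 1 of ceramide breakdown, in porcine granulosa cells (GCs), the somatic cells that line the ovarian follicle. They were taken as the probes that the array's annotation assigns to exactly these symbols. Each of the 4 genes had 1 probe (EMPV1_31416 for BAX, EMPV1_00098 for BAD, EMPV1_01661 for DFFB and EMPV1_04867 for ACER2), among 9962 named genes with a value on all arrays. In the NEFA group, GC monolayers were cocultured with cumulus-oocyte complexes (COCs) during in vitro maturation in medium that held palmitic, stearic and oleic acid, the non-esterified fatty acids (NEFAs). In the control group, the same coculture was kept in medium with the albumin and ethanol carrier but without NEFAs. Cells of both groups came from slaughterhouse ovaries, and the age and breed of the animals are not given in the sources used here. The RNA of NEFA and control GCs from each of 4 biological replicates was hybridized together to 1 two-colour array (A, B, C and D).

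Apoptosis through mitochondria is set by the BCL2 protein family. BAX is the effector that inserts into the outer mitochondrial membrane and lets cytochrome c out. BAD binds and neutralizes the survival proteins BCL2 and BCL2L1, and is itself held in the cytosol by 14-3-3 proteins when it is phosphorylated. DFFB is the nuclease that cuts chromatin between nucleosomes once caspases have removed its inhibitor DFFA. Ceramide is the sphingolipid formed from palmitate and serine or released from sphingomyelin, and it is known as a mediator of cell death. ACER2 is the alkaline ceramidase of the Golgi apparatus, which splits ceramide into sphingosine and a fatty acid. Apoptosis of GCs is the hallmark of follicle atresia.

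Each array held 43794 expression probes, and the values are raw spot intensities in the Cy3 (green) and Cy5 (red) channels. The share of probes above background was between 25.4% and 37.8% in the 8 channels. Background in a channel means that the signal after subtraction of the local background did not pass a limit. The limit was set from the 153 negative control spots on that array and in that dye, their mean with 2 SD added. A gene was counted as above background if its probe passed this limit in every NEFA channel or in every control channel. A gene not above background may thus have passed the limit in some channels, and the call can change when array A is exchanged. The direction of the ratios is not settled. The channel fields of the sample labels place NEFA RNA in Cy3 on arrays A and B and in Cy5 on C and D, whereas the sample titles say the reverse for every array. In addition, A and B have the same orientation by either label, yet their normalized log ratios of red to green had a correlation of -0.74 across probes, against 0.47 for C and D. Between arrays of opposite orientation the correlation was 0.41 for B and C, 0.32 for B and D, -0.32 for A and C and -0.30 for A and D. Over the 58 control probe types, the red to green ratios of A had a correlation of -0.99 with the mean of the other arrays, whereas each of B, C and D had 0.96 to 0.99 with the mean of the other two of these. Therefore values are given with the channel fields first, and also with the channels of array A exchanged. With the titles, every sign turns, so that each positive difference given below becomes negative and each negative one positive.

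Of the 4 genes, only BAX had a signal above background, and it had one in all 8 channels (in 7 of 8 with a limit of 3 SD). None of the 4 genes passed the criterion of the study's analysis (unadjusted p under 0.05 and a change of at least 1.2-fold in limma) whereas 80 of all 9962 genes did (0.803%). After the exchange of array A's channels, 0 of the 4 genes passed too, against 415 of all genes (4.17%). Benjamini-Hochberg adjustment over all probes gave adjusted p = 0.9995 for each of the 4 genes with the channels as labelled, which was also the smallest value of any probe in limma. As the members number 4, a count of 0 lies near what either background share gives.

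BAX had net signals of 442, 596, 435 and 480 fluorescence units in NEFA GCs on arrays A, B, C and D, against 601, 387, 604 and 680 units in control GCs. These raw units are not comparable between dyes, and the limits of the negative control spots were 271, 441, 323 and 383 units in the NEFA channels and 444, 265, 475 and 633 units in the control channels. The BAX signal was thus 1.25 to 1.63 times its limit in NEFA GCs and 1.07 to 1.46 times its limit in control GCs. After normalization, the log2 intensities of BAX were 8.93, 8.73, 9.01 and 8.75 in NEFA GCs, against 8.75, 8.79, 8.82 and 8.54 in control GCs. The ranges of the groups overlapped, and the NEFA channel was the brighter one on arrays A, C and D but not on B.

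BAX averaged 8.86 ± 0.14 in NEFA GCs and 8.72 ± 0.13 in control GCs (log2 intensity, SD, n = 4 each), a log2 difference of 0.13 with an SE of 0.09. With the channels as labelled, the 95% confidence interval was -0.07 to 0.34, or 0.95-fold to 1.27-fold. It spans differences of both signs (unadjusted p = 0.17 in limma). This interval is for the normalized signal of a probe at 1.07 to 1.63 times its limit. How closely such a signal follows the amount of BAX transcript was not tested. The exact two-sided sign-flip permutation test over the 4 arrays gave p = 0.25, and the smallest value it can give is 0.125. Under the exchange of array A, BAX averaged 8.81 ± 0.13 in NEFA GCs and 8.77 ± 0.17 in control GCs, and the log2 difference was 0.04 with an interval of -0.20 to 0.28. In this arrangement the red channel was brighter for BAX on all 4 arrays, by 0.16 on the log2 scale on average, and NEFA was the brighter channel on 2 arrays. A fit with a dye term gave the same NEFA difference with an interval of -0.12 to 0.20.

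**Figure D1:**
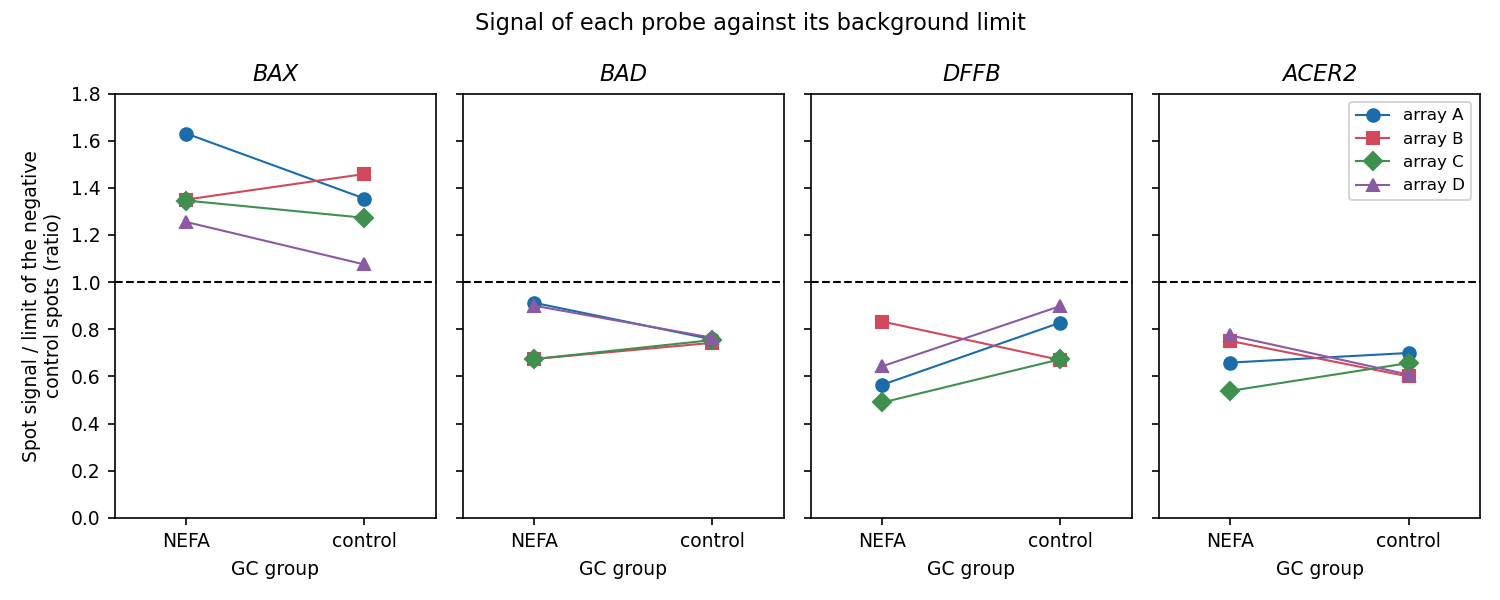
Net spot signal of each probe divided by the limit of the negative control spots of its array and dye (y axis, ratio), in the NEFA and control channels of arrays A to D as the channel fields of the labels give them; lines join the channels of 1 array and the dashed line is the limit. BAX lies above the limit in all 8 channels (1.07 to 1.63), and BAD, DFFB and ACER2 lie below it in all channels (0.49 to 0.91).

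BAD, the sensitizer that frees BAX from the survival proteins, was not above background in any channel. Its net signals were 248, 297, 218 and 344 units in NEFA GCs, against 336, 197, 358 and 483 units in control GCs. This is 0.67 to 0.91 times the limit, and in 2 of the 8 channels, those of NEFA on arrays A and D, the signal was over the mean of the negative control spots. The normalized log2 signals of this probe averaged 7.96 ± 0.34 in NEFA GCs and 7.78 ± 0.07 in control GCs (SD, n = 4 each). The groups overlapped, and the NEFA values of arrays A and D were the highest while that of B was the lowest. Because both groups were below background, no fold change is given for BAD, nor for DFFB and ACER2 below. With array B left out, BAD passed the criterion (unadjusted p = 0.012 and adjusted p = 0.16 in limma) together with 1468 of all genes (14.7%), still with no channel above background. If the channels of array A are in truth exchanged, the values taken as NEFA on A, C and D all come from the red channel. NEFA and dye then cannot be told apart without array B. In the fit of all 4 arrays as labelled, NEFA would then be green on array B alone, so dye would not be balanced there either. Once array A was exchanged, the red channel of BAD was brighter on all 4 arrays and the NEFA channel on 2.

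DFFB, the executioner nuclease, was likewise not above background in any channel. Net signals were 153, 367, 158 and 246 units in NEFA GCs, against 368, 177, 320 and 569 units in control GCs. They reached 0.49 to 0.90 times the limit, and 1 of 8 channels, the control of array D, was over the mean of the negative control spots. The normalized log2 signals averaged 7.67 ± 0.14 in NEFA GCs and 7.83 ± 0.21 in control GCs (SD, n = 4 each). The control channel was the brighter one on arrays A, C and D and the NEFA channel on B, with overlapping groups. The green channel of DFFB was the brighter one on all 4 arrays under the exchange of array A.

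ACER2, the ceramidase, was not above background in any channel either. It had 179, 331, 174 and 296 units in NEFA GCs, against 310, 159, 312 and 385 units in control GCs, and none of the 8 channels reached the mean of the negative control spots. These signals were 0.54 to 0.77 times the limit. The normalized log2 signals were 7.70, 7.64, 7.67 and 7.99 in NEFA GCs, against 7.58, 7.53, 7.59 and 7.39 in control GCs. On this scale every NEFA value lay over every control value, on a probe with no signal above the negative control spots. The difference was 0.60 on array D and between 0.08 and 0.13 on the other arrays, and unadjusted p = 0.089 in limma. The exact sign-flip permutation test gave p = 0.125, the smallest it can give with 4 arrays. Under the exchange, NEFA was the brighter channel on 3 of 4 arrays and the groups overlapped, with means of 7.72 ± 0.18 in NEFA GCs and 7.55 ± 0.13 in control GCs.

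**Figure D2:**
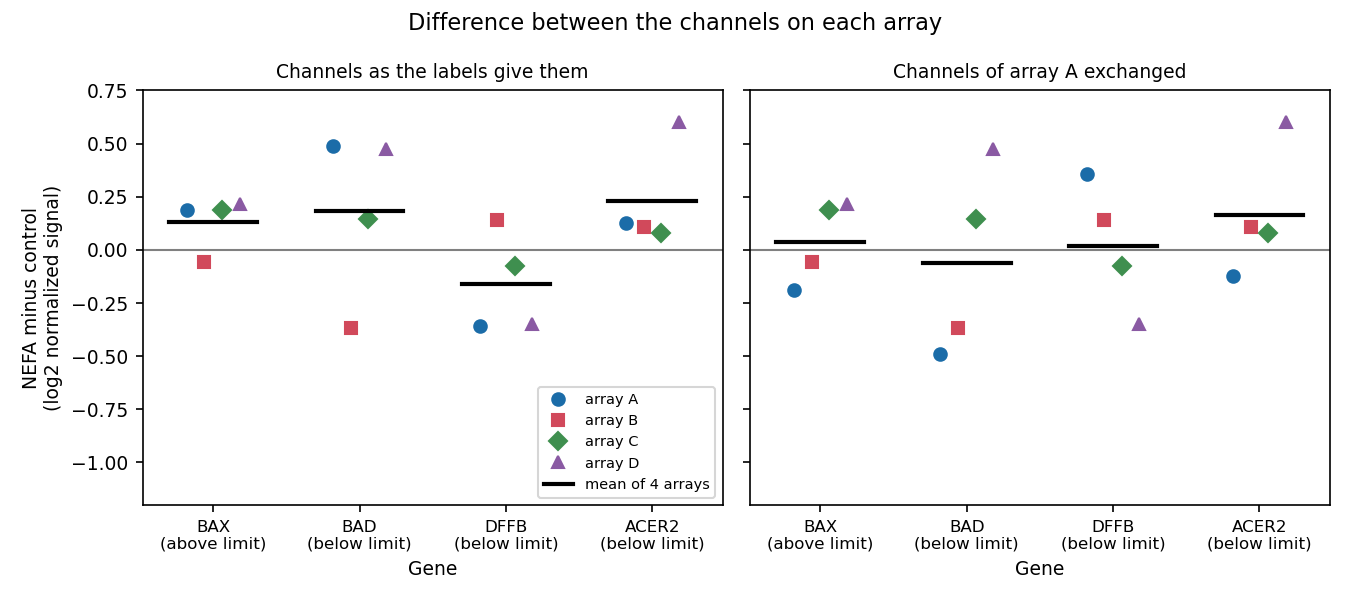
Difference between the NEFA and control channels on each array (y axis, log2 normalized signal) for the 4 genes, with the channels as the labels give them (left) and with the channels of array A exchanged (right); black bars are means over 4 arrays. With the exchange, arrays A and B fall on one side of 0 and C and D on the other for BAX, BAD and DFFB, and the means of BAX, BAD and DFFB lie within 0.06 of 0. Only BAX is above background, so the points of the other 3 genes are differences between background-level signals.

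The genes that act directly on or with these 4 were examined next. Of 29 such genes in the list, 15 had a value on all arrays and 7 of them were above background. None of the 7 passed the criterion with either arrangement of array A, beside 0.803% of all genes as labelled and 4.17% with the exchange. For 7 genes, a count of 0 lies near what either share gives. Among the BCL2 family, MCL1, a survival protein that restrains BAX and BAK1, had log2 ratios of NEFA to control of -0.10, 0.10, -0.13 and 0.09 on arrays A to D, a mean of -0.01 with an interval of -0.22 to 0.19. MCL1 was the best measured survival gene, as its 3 probes were all above background, with means of -0.01, 0.02 and 0.02. With array A exchanged, the first of these means was 0.04. BID, the caspase-8 substrate that activates BAX, had a mean of -0.03 (interval -0.30 to 0.23) and 0.09 with array A exchanged. BAK1, the other pore former, BCL2L11 and BCL2L1 were not above background, and neither was APAF1, the scaffold of the apoptosome.

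DFFA, the chaperone and inhibitor of DFFB, was above background and had log2 ratios of -0.06, 0.41, -0.47 and -0.22 on arrays A to D. Its mean was -0.08 with an SE of 0.15, and the values of arrays B and C lay on opposite sides of 0. The other probe of DFFA, not above background, had a mean of 0.12. Of the 14-3-3 genes, whose proteins sequester phosphorylated BAD, YWHAB, YWHAQ and YWHAZ were above background. YWHAQ had ratios of 0.67, -0.55, 0.68 and 0.30, a mean of 0.27 with an SE of 0.21, and this mean was -0.06 with array A exchanged. YWHAB had a mean of -0.14 and YWHAZ of 0.01, against 0.07 and -0.01 with array A exchanged. YWHAH and PPP3CA, the catalytic subunit of calcineurin that dephosphorylates BAD, were not above background.

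Among the ceramide partners, ACER3, the other alkaline ceramidase on the array, was above background. ACER3 had log2 ratios of -0.004, -0.07, -0.17 and -0.20 on arrays A to D, and so was lower in NEFA GCs on all 4, with a mean of -0.11 and an interval of -0.30 to 0.08. The mean of ACER3 was -0.11 also with array A exchanged, and unadjusted p = 0.21 in limma with both arrangements. With the exchange, however, the ratio of array A turned positive, so ACER3 was then not lower in NEFA GCs on that array. Neither SMPD1, the acid sphingomyelinase, nor SGMS1, a sphingomyelin synthase, was above background.

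The wider apoptosis list held 74 genes, of which 48 were measured and 20 were above background. With the channels as labelled, none of the 48 passed the criterion in limma, beside 0.803% of all genes, and 0 had an unadjusted p under 0.05, beside 142 of all 9962 genes (1.43%). The values were over 0 for 23 genes and under 0 for 25, with a median of -0.004 on the log2 scale, beside -0.02 over all 9962 genes. Among the 20 above background the median was -0.04, and it was -0.05 over all 3051 genes above background. Beside the genes already named, the lowest p among the genes above background of a group belonged to BNIP3L, a mitophagy receptor of the BCL2 family (-0.13), VDAC1, the channel of the outer mitochondrial membrane (-0.21), CASP6, an effector caspase (-0.05), ENDOG, a mitochondrial nuclease (-0.14), and DDIT3, a transcription factor of endoplasmic reticulum stress (-0.13). All 5 of these missed the threshold, with unadjusted p = 0.21 to 0.64 in limma. With array A exchanged, the log2 differences of these 5, in the same order, were -0.22, -0.28, -0.20, -0.07 and -0.009. ENDOG was then no longer above background. No member of the death receptor group (6 measured) or of the inhibitors of apoptosis proteins (2 measured) was above background.

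After the exchange of array A's channels, again 0 of the 48 genes passed the criterion, beside 4.17% of all genes. Of the 20 genes above background as labelled, 7 kept the sign of their value, beside 2025 of all 3051 such genes. Their median was -0.03, beside -0.05. A p under 0.05 was found for 1 of 48 genes, beside 584 of all 9962 genes (5.86%), and this gene was CASP6 (log2 difference -0.20, unadjusted p = 0.035, adjusted p = 0.92 in limma). The other probe of CASP6, not above background, had a mean of 0.10 with the channels as labelled, against -0.05 for this probe. In the fit that also has a dye term, 1 of 48 passed, beside 6.72% of all genes. It was VDAC1, with a log2 difference of -0.28 (SE 0.08, unadjusted p = 0.0076, adjusted p = 0.17). With the channels as labelled but without array B, 6 of 48 passed (4 higher and 2 lower in NEFA GCs), namely YWHAQ, SFN, PIM1, BAD, YWHAB and ENDOG, against 14.7% of all genes. PIM1 and BAD were not above background. The limit on dye given for BAD without array B holds for all of these calls. SFN and PIM1, like PSAP, UGCG, ORMDL1, UGT8 and SPTLC2 in the next paragraphs, were named after their values were seen.

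The ceramide list held 47 genes, of which 30 were measured and 8 were above background. None of the 30 passed the criterion in limma with the channels as labelled, beside 0.803% of all genes. An unadjusted p under 0.05 was found for 1 of 30 genes, beside 1.43% of all genes. It was SPTLC2, a subunit of the serine palmitoyltransferase that starts ceramide synthesis from palmitate (unadjusted p = 0.034), and it was not above background. The median of the list was 0.02, beside -0.02 over all genes, and among the 8 genes above background it was -0.08, beside -0.05. With array A exchanged, the median of these 8 genes was 0.07, beside -0.05. ORMDL2, which restrains serine palmitoyltransferase, had ratios of 0.19, -0.43, 0.53 and 1.11 on arrays A to D and a mean of 0.35 with an SE of 0.23. The 4 probes of ORMDL2 did not move together, since the other probe above background had a mean of -0.20. SMPDL3A, a phosphodiesterase related to acid sphingomyelinase, had -0.15, and GBA2, the non-lysosomal glucosylceramidase, had -0.12. With array A exchanged, ORMDL2 had 0.26 and GBA2 had -0.02.

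With the channels of array A exchanged, 0 of the 30 ceramide genes passed, beside 4.17% of all genes. A p under 0.05 was found for 1 of 30, SMPDL3A, beside 5.86% of all genes (log2 difference -0.22, unadjusted p = 0.03, adjusted p = 0.86 in limma). With the dye term added, 2 of 30 passed, a share close to the 6.72% of all genes that passed in this fit. Both were higher in NEFA GCs and above background. PSAP, the precursor of the saposins that assist lysosomal sphingolipid breakdown, had a log2 difference of 0.46 (SE 0.10, adjusted p = 0.079), and UGCG, which turns ceramide into glucosylceramide, had 0.37 (SE 0.08, adjusted p = 0.09). With the channels as labelled, these were -0.08 for PSAP and 0.03 for UGCG. Without array B, 4 of 30 ceramide genes passed, close to the 14.7% of all genes. They were ORMDL2, ORMDL1, UGT8 (higher) and SPTLC2 (lower), and of these ORMDL2 was above background. The same limit on dye holds for these calls.

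**Figure D3:**
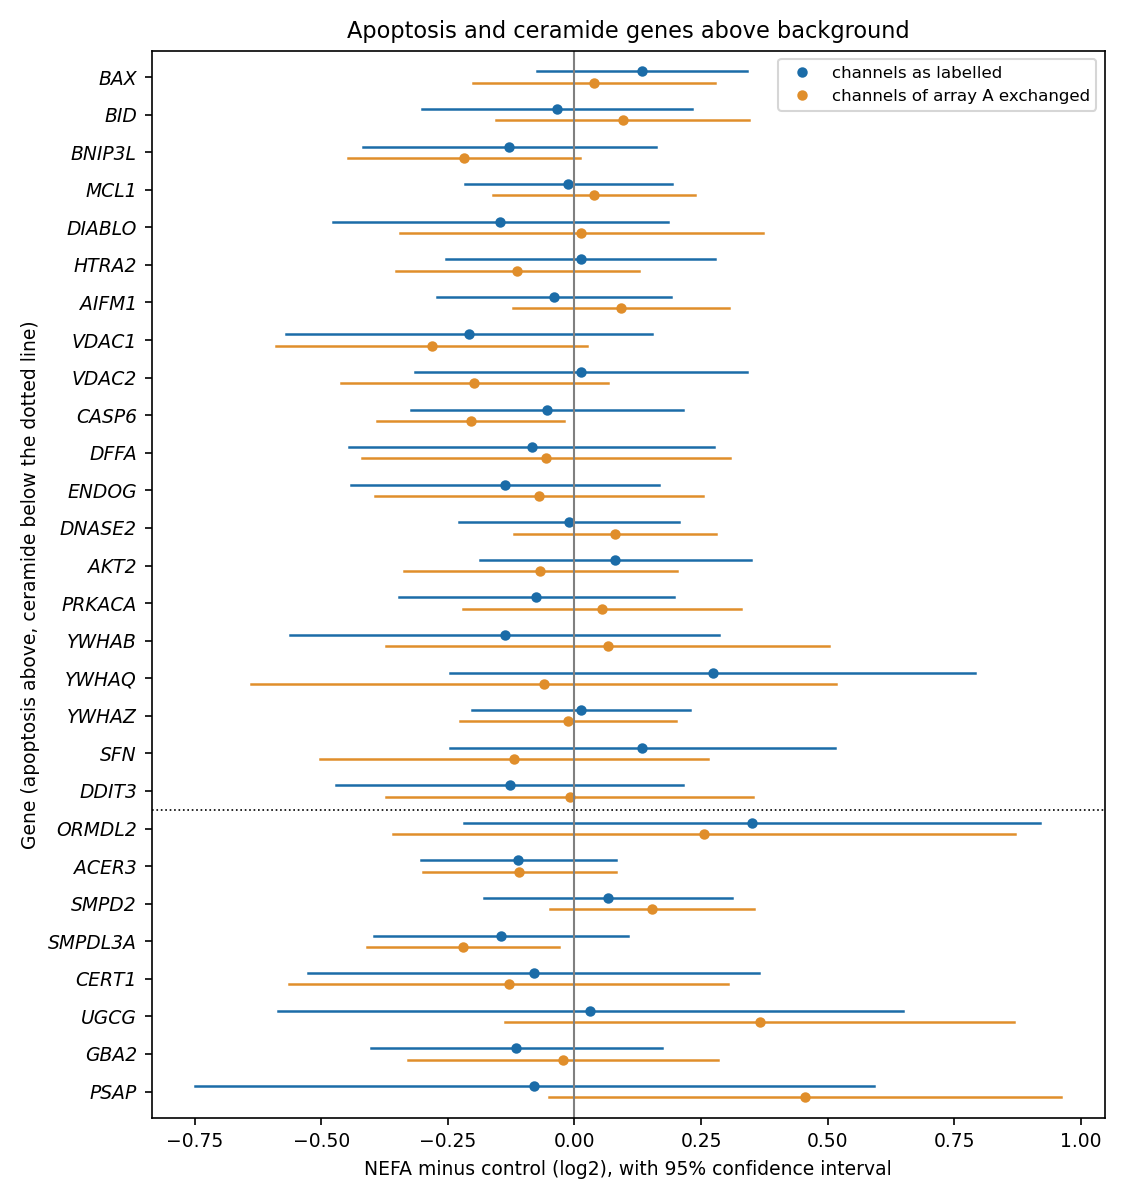
Mean log2 difference between NEFA and control GCs (x axis) with its 95% confidence interval from 4 arrays, for the 20 apoptosis genes and the 8 ceramide genes above background, with the channels as labelled (blue) and with the channels of array A exchanged (orange). With the channels as labelled every interval includes 0, and with the exchange those of CASP6 and SMPDL3A do not.

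The genes with a pattern most like each member were sought by the root mean square difference of the 4 log2 ratios, among 3050 other genes above background. For BAX these were GDF3, a ligand of the transforming growth factor family (0.05), SMARCA1, a chromatin remodeler (0.05), and ATP2B4, a plasma membrane calcium pump (0.06). GDF9, a growth factor secreted by the oocyte, was the closest to BAD (0.11), followed by HMOX2, a heme oxygenase (0.11), and PROS1, which encodes protein S (0.12). For DFFB they were SLC2A8, a glucose transporter (0.06), NUDC (0.07) and DCAF7 (0.08). HUWE1, a ubiquitin ligase (0.08), OMA1, a protease of the inner mitochondrial membrane (0.09), and NGLY1, which removes N-glycans (0.09), were the closest to ACER2. Such likeness over 4 arrays is a description, and for BAD, DFFB and ACER2 it concerns background-level signals.

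The label of the cells could be checked in part. Of 15 granulosa markers 4 were measured, and AMH, NR5A1 and NR5A2 were above background, whereas INHBA was not. With array A exchanged, AMH stayed above background but NR5A1 and NR5A2 did not. Markers of fibroblasts and smooth muscle were above background for 4 of 6 measured genes (PDGFRA, DCN, LUM and ACTA2). Those of oocytes and cumulus cells were for 3 of 9 (GDF9, FIGLA and HAS2). All of these stayed above background with array A exchanged. The COCs were removed after the coculture and the monolayers were washed before lysis. The source of the oocyte and cumulus marker signals was not tested. None of the theca, leukocyte and endothelial markers measured (3, 4 and 3 genes) was above background. No marker of either list passed the criterion with the channels as labelled, beside 0.803% of all genes. With array A exchanged, 1 of the 25 measured markers of other cells passed, close to the 4.17% of all genes. It was CNN1, a smooth muscle gene not above background. In such a bulk RNA, fewer cells that express a gene and less RNA per cell cannot be told apart.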

How the data were processed

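Amplified RNA was labelled with Cy5 or Cy3 and hybridized to the EmbryoGENE porcine array, whose spots the authors extracted with Array-Pro. The deposited intensity values give each spot's mean signal and mean local background, without normalization. They also deposited a table of log2 ratios that the methods describe as background-subtracted and normalized by loess and quantile. Its scale was taken as log2 from the spread of its values and its direction is not stated. Its rows could not be matched to the spots (correlations by spot number of 0.0018 to 0.0059, column medians of -0.009 to 0.0007), so it was not used for any gene. Spots marked as ignored in the scanner files (60 to 121 probes per array) were set to missing.

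From the raw intensities, background was corrected with normexp (offset 50), loess was fitted within arrays with control spots at weight 0, and quantile normalization was applied between arrays, in limma 3.58.1 with R 4.3.3. Subtraction, which the paper names, leaves values without a logarithm and was an alternative. A single coefficient was fitted per probe, NEFA minus control on the log2 scale, with the sign of each array set by its orientation, and tests were two-sided. The orientation was that of the channel fields. Replicates were paired by sharing an array. The number of arrays limits the precision. Genes came from the annotation given by spot number (13146 probes with 1 gene, 30648 unnamed), and 166 symbols were updated through a RefSeq gene table. The brightest probe stood for a gene. No coordinates or sequences are given, since the files name no genome build and hold no probe sequence. The fit was run on simulated ratios with a smaller spread than the arrays gave, no dye effect and no exchanged array. Known changes were put in probes brighter than the 4 genes, so the simulation does not cover the conditions of these genes.

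The genes named are the members, their direct partners, genes passing the criterion or with the smallest p in each group of a list, and the 3 nearest patterns. Members and lists were chosen with earlier results of these data known. The alternatives tried were the titles' direction, the exchange of array A (also with a dye term), other background corrections and normalizations, a restriction to probes above background, a dye term, separate channels, unpaired channels, a robust prior with an intensity trend, averaged probes, and each array left out. Other limits for background were added after seeing the data.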

Additional observations from a re-analysis of the deposited data

Results flagged for a closer look

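In 2 of the 16 groups of 4 values examined for the 4 genes, 1 array lay far from the other 3 by Dixon's criterion at its 95% critical value, which chance gives in about 1 in 20 groups. For BAX the log2 difference between NEFA and control was -0.058 on array B, against 0.19 to 0.21 on the other arrays. That of ACER2 was 0.60 on array D, against 0.08 to 0.13 on the other arrays, with no ACER2 channel above background. With the channels of array A exchanged, neither ratio stood apart in this way.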

How the results depend on the processing

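The direction taken from the titles turned every sign, giving log2 differences of -0.13 for BAX, -0.18 for BAD, 0.16 for DFFB and -0.23 for ACER2. For BAD, DFFB and ACER2 such values are differences between signals below background and no fold changes. Exchanging the channels of array A gave -0.0597 for BAD and 0.0181 for DFFB, with and without a dye term, and BAD was -0.00787 with no background correction. With each array left out in turn, the difference ranged from 0.11 to 0.20 for BAX, 0.0835 to 0.37 for BAD, -0.26 to -0.09 for DFFB and 0.10 to 0.28 for ACER2. Under the exchange these ranges were -0.0204 to 0.11 (-0.0113 without array C), -0.24 to 0.0835 (-0.13 without C), -0.0947 to 0.14 (0.0492 without C) and 0.02 to 0.26. BAX met the criterion under none of its 21 alternatives, and its smallest unadjusted p was 0.047, without array B.

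Without the replicate block, which treats the 8 channels as unpaired, the difference of BAX was 0.13 (unadjusted p = 0.23), no listed gene passed the criterion and 44 of all genes did. All genes called numbered 415 with the exchange, 669 with the exchange and a dye term, 19 with no background correction and 10 over probes above background alone, where fewer probes were tested. The count ran from 27 to 1468 with each array left out and was 311, 372, 674 and 517 without A, B, C and D under the exchange. The 1468 genes came without array B, and the count was 311 without A, 27 without C and 30 without D. Apoptosis genes called numbered 1 and ceramide genes called 2 with the exchange and a dye term, 0 to 6 and 0 to 4 with each array left out, and 0 to 1 and 0 to 2 under the exchange. Of the calls 28 were higher and 52 lower, against 36 and 42 with background subtracted, 34 and 33 with no normalization between arrays, 40 and 40 with an intensity trend, and 108 and 307 with the exchange. The causes of these shifts were not tested. The table of ratios deposited by the authors gave no value for any gene. A limit of 1 SD put 2 channels of BAD above background and a limit on raw signals 3, and DFFB and ACER2 had 0 under all limits.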
